A study of Homo sapiens with 9 samples.

Results

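The libraries labelled Kv1.5 were compared with the RFP control libraries across all genes. The comparison used 5 of the 9 samples of the series: replicates 2 and 3 of the Kv1.5 line and replicates 1, 2 and 3 of the RFP line, while replicate 1 of the Kv1.5 line was not analysed here. All were cultures of MDA-MB-231, an established breast cancer cell line of the triple negative type, which lacks oestrogen and progesterone receptors and amplified ERBB2. Both lines were made with lentivirus produced in HEK293T cells, spun onto the cells with polybrene, and sorted by fluorescence. The control line carried RFP, a red fluorescent protein, and the other line a construct named Kv1.5-T2A-his-EGFP, so the lines differed in the fluorescent protein as well as in the named channel. Libraries of another line, carrying KCNJ2 (Kir2.1) with the substitution Y242F joined to EGFP, entered the same fit. They add to its estimate of spread and so bear on the calls against RFP. They also serve to test whether a change set the Kv1.5 libraries apart from another channel line, and stand beside the chromosome medians. RNA was taken from separate biological replicates of each line, but the labels do not say whether these were transduced separately, so p-values speak only of how cultures of a line vary. They give no time between transduction and RNA either.

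Kv1.5, the product of KCNA5, is a voltage-gated potassium channel that opens when the membrane depolarises and lets potassium leave the cell. MDA-MB-231 cells are mesenchymal in form, express vimentin rather than E-cadherin, and secrete matrix proteases and inflammatory cytokines. NF-kB factors are held in the cytoplasm by inhibitor proteins until a receptor signal frees them to drive cytokine and chemokine genes. In the integrated stress response, phosphorylation of the translation factor eIF2 favours the translation of ATF4, which raises genes for amino acid uptake and synthesis. ERK signalling induces immediate early transcription factors together with its own feedback inhibitors.

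The 5 libraries held 33517273 to 42753422 counts. Across genes, which are not independent replicates, log2 CPM correlated at 0.976 to 0.989 between RFP libraries, at 0.972 between the Kv1.5 libraries and at 0.909 to 0.920 between the groups. KCNA5 (ENSG00000130037.5, chromosome 12, 5043989 to 5046788, GRCh38) had 0 counts in all 5 libraries. Over both Kv1.5 libraries, 0 counts allow a level of up to 0.0390 CPM (a count scaled to library size, here with TMM factors), a bound that covers counting error only. The channel named by the label was therefore not seen in the counts of this gene, and the group is called the Kv1.5 libraries by its label alone. The sources used here do not give the construct's sequence, so whether its RNA would be counted at KCNA5 is not known. Of the markers of the cell line, VIM, CD44, CAV1, AXL and MSN were expressed in every library. Of 5 markers listed as low in the line (ESR1, PGR, ERBB2, CDH1 and EPCAM), 3 stayed under 1 CPM in all. Of the first 5, 1 was called higher and 2 lower than in RFP. VIM was among the lower (-0.90 on the log2 scale), a call lost at -0.80 without Kv1.5 replicate 3. The 5 markers listed as low summed to 65.0 to 79.7 CPM in RFP and 70.1 and 77.8 CPM in Kv1.5, and the 2 tested were not called. This changed for 1 of them without Kv1.5 replicate 2. Of 7 markers of HEK293T cells, 5 were at 0 in all. The 7 summed to 8.55 to 9.26 CPM in RFP and 5.19 and 2.92 CPM in Kv1.5. The 1 tested, GATA3, was called lower (-1.14 on the log2 scale), a call lost at -0.79 without Kv1.5 replicate 3. Markers of other cells moved in both directions, and their part in the results was not tested. The sum of 7 fibroblast markers was 187.1 to 200.0 CPM in RFP and 9.24 and 4.69 CPM in Kv1.5, most of it COL1A1 in RFP, with 4 of them under 1 CPM throughout; of 4 tested 2 fell and 1 rose, LUM, by 2.94 on the log2 scale to 1.28 and 1.61 CPM. The 6 endothelial markers summed to 54.0 to 65.5 CPM in RFP and 29.3 and 27.4 CPM in Kv1.5, and of 3 tested ENG fell and KDR rose by 3.26 to 25.4 and 22.9 CPM, most of the Kv1.5 sum (2 lower without RFP replicate 1 or 3, Kv1.5 replicate 2 or 3 or Kir2.1 replicate 1, 2 or 3). The 6 leukocyte markers, with CD3E and TYROBP at 0, summed to 128.5 to 261.4 CPM and 67.5 and 19.6 CPM, and of 2 tested LAPTM5 fell and CD14 rose by 2.48 to 3.88 and 3.92 CPM. The log2 fold change of LAPTM5, -2.25, was -3.58 without Kv1.5 replicate 2 and -1.56 without Kv1.5 replicate 3. The 8 markers of MDA-MB-468, another breast cancer line, summed to 14.3 to 19.3 CPM in RFP and 18.2 and 28.4 CPM in Kv1.5, with 1 of 4 tested higher (0 higher without RFP replicate 1 or 3). In bulk RNA, fewer cells of a type and less RNA per cell cannot be told apart.

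The comparison asks which genes differ between cells transduced with the construct named for this channel and cells transduced with a control protein. Many members of the lists of inflammatory, stress and ERK response genes rose, most genes of DNA replication and mitosis fell, and 28 genes went from under 1 CPM to at least 10 CPM. Of 16687 genes tested, 3028 rose (18.1%) and 2596 fell (15.6%) at an adjusted p under 0.05, together 33.7%, and the median log2 fold change of all genes was 0.02. Of the genes called, 2112 rose and 1739 fell by more than 2-fold, and 296 rose and 204 fell by more than 16-fold. The values of the groups did not overlap for 54.2% of all tested genes. Called genes named below for the size of their change were picked among genes without overlap. Their separation from RFP follows from that choice and adds no evidence. Kv1.5 and Kir2.1 libraries differed in 16.8% of genes, 8.79% higher and 7.99% lower in Kv1.5, 2801 genes in all. This count was 1384 without Kir2.1 replicate 2, 1484 without Kv1.5 replicate 3, 1493 without Kir2.1 replicate 3 and 1859 without Kir2.1 replicate 1. Where a list has 0 called members, the count is from edgeR and was also 0 at an unadjusted p under 0.05, by DESeq2 and by limma voom, unless other counts are given. Where leaving out 1 library ends a call or moves a called fold change against RFP or a count of calls by over 1.5 times, that library is named. For the difference of a single gene from Kir2.1, only lost calls are named, and moves in its size were not screened. The shares of each gene list are read against these. The plot of gene lists sets the groups described below side by side.

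Among genes at under 1 CPM in every RFP library and at least 10 CPM in both Kv1.5 libraries there were 28, and 16 showed the reverse. MAGEC1, a cancer-testis antigen on the X chromosome, was at 0.0477, 0.0525 and 0.115 CPM in the RFP libraries and 50.2 and 46.3 CPM in the Kv1.5 libraries. The log2 fold change was 9.36 (SE 0.36, adjusted p = 1.51e-08). TNFSF15, a cytokine of the TNF family just outside the 28, stood at 1.74, 1.42 and 2.91 CPM in RFP and 346 and 453 CPM in Kv1.5, 198-fold higher (7.63 on the log2 scale, adjusted p = 4.32e-07). DAPK1, a calmodulin-regulated kinase with a part in cell death, was at 0.0716, 0.0788 and 0.0288 CPM in RFP and 35 and 21.3 CPM in Kv1.5 (8.77 on the log2 scale, adjusted p = 8.23e-08). The groups are separated for each by the way the genes were chosen. All 3 also exceeded Kir2.1, by 2.62, 3.24 and 1.49 on the log2 scale (adjusted p = 9.71e-05, 0.000306 and 0.00464). The noncoding RNA LINC01088 rose by 8.58 and exceeded Kir2.1 by 3.2, adjusted p = 1.49e-05. By contrast MXRA8, a membrane protein of the matrix, rose by 9.26 from near 0, and its difference from Kir2.1 was -0.08, adjusted p = 0.873. Of the 28 genes, 15 were higher than in Kir2.1, 2 lower and 11 not called. TP73-AS1, named as an antisense RNA, was at 0, 0.0525 and 0.0576 CPM in RFP and 25.3 and 20 CPM in Kv1.5 (9.2 on the log2 scale, and 8.6 without RFP replicate 1). No source names the strand setting used for counting, and LINC01088 is annotated as antisense, so overlapping genes on opposite strands may share reads here.

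Of the 16 genes that went from at least 10 CPM to under 1 CPM, 8 were also lower than in Kir2.1 and 8 were not called. ENG, the TGF-beta co-receptor endoglin, had 5615 counts over the RFP libraries and 0 over the Kv1.5 libraries, at least 1255-fold lower by a floor of 3 counts over the group. CADM1, an immunoglobulin-type cell adhesion molecule, was at 58.7, 83.9 and 158 CPM in the RFP libraries and 0.411 and 0.474 CPM in the Kv1.5 libraries (log2 fold change -7.81, SE 0.52, adjusted p = 1.1e-06), and it was below Kir2.1 too (-3.99, adjusted p = 0.000351). HCLS1, a cortactin-related protein best known in blood cells, stood at 25.6, 25.1 and 19.9 CPM in RFP and 0.282 and 0.132 CPM in Kv1.5 (-6.8 on the log2 scale, adjusted p = 5.86e-07). In all 3 the groups are separated by the rule that chose the 16 genes. DCLK1, a microtubule-associated kinase, fell 116-fold and PLCB1, a phospholipase C, 54.3-fold, with differences from Kir2.1 of -1.07, adjusted p = 0.19 and -1.22, adjusted p = 0.0635. PTPRN2, a phosphatase-like protein of secretory vesicles, had 1 count in the Kv1.5 libraries against 3240, a ratio of 2173 (95% interval 389.7 to 85845). Its fitted log2 fold change of -10.76 was -9.9 without Kv1.5 replicate 2 and -13.03 without Kv1.5 replicate 3. SCARA3, a scavenger receptor just outside the 16, was at 51.5, 53.4 and 36 CPM in RFP and 1.26 and 0.29 CPM in Kv1.5, and its change of -5.91 ran from -7.32 without Kv1.5 replicate 2 to -5.22 without Kv1.5 replicate 3. The value of HCLS1 was -7.44 without Kv1.5 replicate 2. The plot of switched genes shows these levels with the mean of the Kir2.1 libraries.

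**Figure D1:**
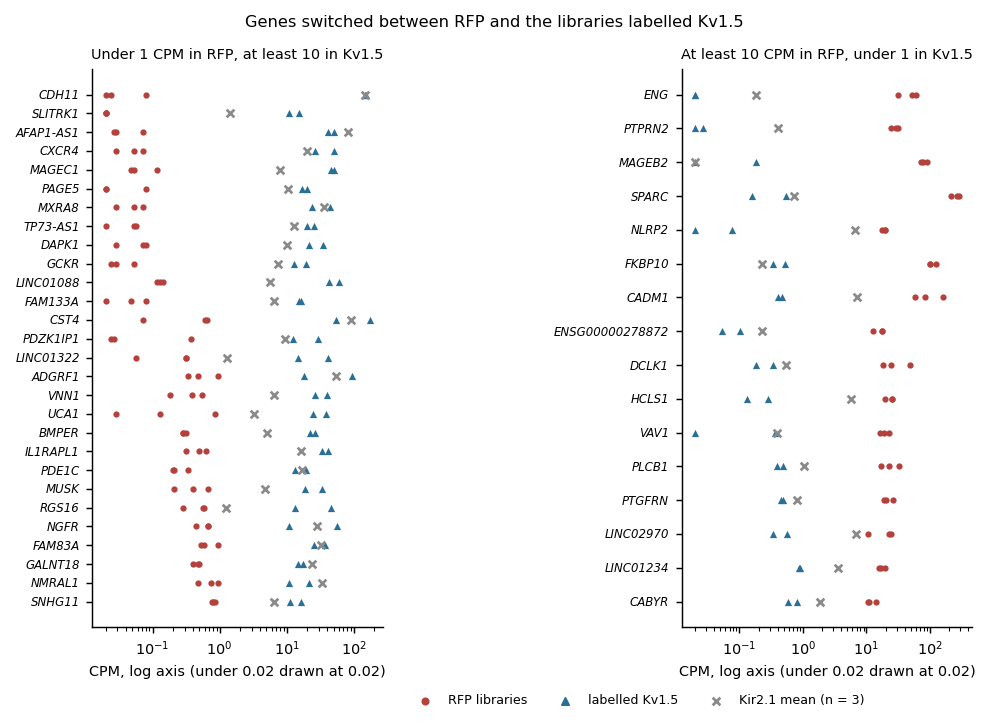
CPM on a log axis of the 28 genes under 1 CPM in every RFP library and at least 10 CPM in both Kv1.5 libraries (left) and the 16 with the reverse (right), with circles for the 3 RFP libraries, triangles for the 2 Kv1.5 libraries and crosses for the mean of 3 Kir2.1 libraries. The groups are separated by the rule that chose the genes, and the crosses show that 15 of the 28 were called lower in Kir2.1 than in Kv1.5, 2 higher and 11 not called.

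Inflammatory genes were higher in Kv1.5. Of cytokines, chemokines and their receptors, 16 of 30 tested members rose, 1 fell and 13 were not called, with a median log2 fold change of 1.91, and the 1 fall was lost without either Kv1.5 library. IL1A, the alarm cytokine interleukin 1 alpha (ENSG00000115008.6, chromosome 2, 112773915 to 112784590), was at 11.9, 8.09 and 14.4 CPM in the RFP libraries and 298 and 199.8 CPM in the Kv1.5 libraries, 21.7-fold higher. This is a log2 fold change of 4.44 (SE 0.33, adjusted p = 2.69e-06). CXCL8, the neutrophil chemoattractant interleukin 8 (ENSG00000169429.11, chromosome 4, 73740506 to 73743716), was at 88.1, 188 and 492 CPM in the RFP libraries and 3675 and 3736 CPM in the Kv1.5 libraries. On the log2 scale the change was 3.86 (SE 0.78, adjusted p = 0.00642). Its RFP libraries spread over a wide range, the change was 4.74 without RFP replicate 3, and the call was lost (adjusted p = 0.0605) with no filter on low counts. CSF2, the growth factor GM-CSF, likewise varied within RFP, at 20.8, 66.8 and 154 CPM in RFP and 511 and 792 CPM in Kv1.5 (3.02 on the log2 scale, adjusted p = 0.00647), and lost its call without Kv1.5 replicate 3 or with no filter on low counts (adjusted p = 0.0735), with 3.89 without RFP replicate 3. In none of these did the groups overlap. IL1B, the other main interleukin 1, did overlap, at 22.3, 43.7 and 188 CPM in RFP and 151 and 124 CPM in Kv1.5, and was called higher only without RFP replicate 3. Chemokines had the highest median of the roles in this list: 7 of 9 tested members rose, 0 fell and 2 were not called, at 3.43. CXCL2, another neutrophil chemokine, rose from 14.9, 20.7 and 20.6 CPM to 297 and 179 CPM (3.67 on the log2 scale, adjusted p = 0.000132). For CCL2, a monocyte chemokine, 3 counts in RFP stood against 48 in Kv1.5, a ratio of 23.9 (95% interval 7.69 to 119.8), and the fitted log2 fold change of 4.41 was 5.26 without RFP replicate 2.

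Receptors and adhesion molecules went both ways. ICAM1, the leukocyte adhesion molecule, was at 20.5, 42.3 and 50.3 CPM in the RFP libraries and 1006 and 569 CPM in the Kv1.5 libraries. Fitted, the difference on the log2 scale was 4.38 (SE 0.37, adjusted p = 6.72e-06). Of VCAM1, a related adhesion molecule, 2 counts were left in Kv1.5 against 1193 in RFP, a ratio of 400.0 (95% interval 110.5 to 3307), but the RFP libraries ran from 1.41 to 22.9 CPM and the call was lost without Kv1.5 replicate 2 or 3 and with no filter on low counts. Its fitted log2 fold change of -8.55 was -7.46 without RFP replicate 3. TNF, at 0.143, 0.263 and 0.115 CPM in RFP and 4.11 and 0.105 CPM in Kv1.5, was called higher (3.57 on the log2 scale), but not without RFP replicate 1, 2 or 3, Kv1.5 replicate 2 or Kir2.1 replicate 2, nor by limma voom (1.99, adjusted p = 0.254). The value was -0.70 without Kv1.5 replicate 2 and 4.53 without Kv1.5 replicate 3. Against Kir2.1, 14 of the 30 members were higher (8 higher without Kv1.5 replicate 2 or Kir2.1 replicate 2 and 9 higher without Kv1.5 replicate 3 or Kir2.1 replicate 3) and 1 lower (2 lower without RFP replicate 1 or 3 and 3 lower without Kv1.5 replicate 2). IL1A, at 9.06 ± 3.42 CPM (SD, n = 3) in Kir2.1, differed by 4.78, adjusted p = 1.3e-05. CXCL8, at 299.6 ± 231 CPM (SD, n = 3) there, differed by 3.63, adjusted p = 0.0169, a call lost without Kir2.1 replicate 2 or Kv1.5 replicate 2 or 3. CXCL2, CSF2, ICAM1 and TNF were chosen for mention after their values were seen.

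Of genes of the NF-kB pathway itself, 12 of 21 tested members rose, 2 fell and 7 were not called, with a median of 0.65 (6 higher without Kv1.5 replicate 2). RELB, the subunit of the noncanonical pathway, was at 20.1, 23.6 and 19.4 CPM in the RFP libraries and 110.2 and 67.1 CPM in the Kv1.5 libraries (log2 fold change 2.08, SE 0.23, adjusted p = 5.96e-05), whereas RELA and NFKB1 of the canonical dimer, at log2 fold changes of 0.16 and 0.49, were not called (NFKB1 was called without Kv1.5 replicate 3). TNFAIP3, the ubiquitin-editing inhibitor A20, stood at 25, 22.1 and 16.3 CPM in RFP and 146 and 64.1 CPM in Kv1.5 (2.31 on the log2 scale, adjusted p = 0.000208; 1.61 without Kv1.5 replicate 2). NFKBIE, an inhibitor that holds NF-kB in the cytoplasm, was at 36.7, 38.2 and 29.4 CPM in RFP and 173 and 112 CPM in Kv1.5 (2.03 on the log2 scale, adjusted p = 9.17e-05). Each was separated between the groups. All 3 were higher than Kir2.1, by 0.84, 1.53 and 0.96 (adjusted p = 0.0279, 0.00736 and 0.0195), calls that were lost without Kir2.1 replicate 2 or 3 or Kv1.5 replicate 2 for RELB, without Kv1.5 replicate 2 for TNFAIP3 and without Kir2.1 replicate 2 or 3 or Kv1.5 replicate 2 for NFKBIE. TRAF1, an adaptor of TNF receptors, rose 6.47-fold, with log2 values of 1.41 without Kv1.5 replicate 2 and 3.36 without Kv1.5 replicate 3, and its difference from Kir2.1 was 1.1, adjusted p = 0.116. Of the receptors, TNFRSF1A fell by 0.89 and TLR3 by 1.73 on the log2 scale (adjusted p = 0.00285 and 0.00602). Levels of 18 of the 21 members were lower in Kv1.5 replicate 3 than in replicate 2. The per-library plot of response genes includes them.

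Promoters of 3 of the induced genes that hold a match to an NF-kB type site are printed to show where it lies. GGAANTTCC was searched on both strands in the 250 bases before the start of each gene in RefSeq promoters (GRCh38.p14). It matched 0.831% of 27305 promoters and 0.916% of the promoters of genes tested. In the lists it matched 8 of the 27 cytokine and chemokine promoters in the table and 4 of the 17 of the NF-kB list. The 8 were CXCL1, CXCL2, CXCL3, CXCL5, CXCL6, CXCL8, CXCL10 and ICAM1. The 250 bases before the start follow, 5′ to 3′ on the strand of the gene, the match in capitals; the genes were picked after the matches were seen, and a match is a description, not a shown binding site. CXCL8 lies at chr4:73740319-73740568 on the plus strand, CXCL2 at chr4:74099196-74099445 on the minus strand and ICAM1 at chr19:10270870-10271119 on the plus strand, and the matches begin 91, 77 and 186 bases before the start.
CXCL8: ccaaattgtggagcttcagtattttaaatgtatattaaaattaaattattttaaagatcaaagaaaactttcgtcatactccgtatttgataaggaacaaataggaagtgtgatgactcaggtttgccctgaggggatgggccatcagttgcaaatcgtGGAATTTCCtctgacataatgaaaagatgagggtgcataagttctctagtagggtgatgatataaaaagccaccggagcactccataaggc
CXCL2: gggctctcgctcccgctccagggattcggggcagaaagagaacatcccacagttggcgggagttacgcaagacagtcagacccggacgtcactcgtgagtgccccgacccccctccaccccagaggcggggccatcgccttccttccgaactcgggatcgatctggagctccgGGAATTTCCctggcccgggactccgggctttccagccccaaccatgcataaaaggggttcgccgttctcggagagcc
ICAM1: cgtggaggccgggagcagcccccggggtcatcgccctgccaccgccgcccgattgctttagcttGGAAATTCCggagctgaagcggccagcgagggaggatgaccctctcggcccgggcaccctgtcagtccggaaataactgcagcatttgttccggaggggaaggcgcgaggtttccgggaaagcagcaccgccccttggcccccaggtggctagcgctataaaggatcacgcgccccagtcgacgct

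Most targets of the integrated stress response rose. Over the whole list, 15 of 24 tested members rose, 1 fell and 8 were not called, at a median of 1.01; of the targets, 9 of 11 tested members rose, 0 fell and 2 were not called, and of the kinases and phosphatase subunits, 1 of 6 tested members rose, 1 fell and 4 were not called (2 higher without RFP replicate 3 or Kv1.5 replicate 2). GDF15, a stress-induced cytokine of the TGF-beta family (ENSG00000130513.6, chromosome 19, 18374731 to 18389176), was at 8.4, 10.6 and 16.7 CPM in the RFP libraries and 359 and 203 CPM in the Kv1.5 libraries, 23.6-fold higher. The log2 fold change was 4.56 (SE 0.34, adjusted p = 2.57e-06). CTH, which makes cysteine from cystathionine, was at 12.6, 11.7 and 10.7 CPM in the RFP libraries and 203 and 147 CPM in the Kv1.5 libraries. This is a log2 fold change of 3.91 (SE 0.23, adjusted p = 5.23e-07). TRIB3, a pseudokinase that restrains the response, stood at 35.9, 40 and 26.1 CPM in RFP and 377 and 229 CPM in Kv1.5 (3.15 on the log2 scale, adjusted p = 1.17e-05). The pairs of Kv1.5 values were many times the highest RFP value in each. CHAC1, which degrades glutathione, was at 11.2, 13.1 and 9.55 CPM in RFP and 121 and 91.6 CPM in Kv1.5 (3.23 on the log2 scale, adjusted p = 8.83e-06). PPP1R15A, the phosphatase subunit GADD34 that reverses the phosphorylation of eIF2, stood at 415, 257 and 185 CPM in RFP and 1909 and 1694 CPM in Kv1.5 (2.66 on the log2 scale, adjusted p = 4.87e-05). BBC3, the death gene PUMA, rose 4.58-fold. The mRNA of ATF4, which is controlled chiefly in translation, overlapped between the groups, at 361, 426 and 365 CPM in RFP and 295 and 418 CPM in Kv1.5. DDIT3, its partner CHOP, was called higher at 0.97 but lost the call without Kv1.5 replicate 2.

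Compared with Kir2.1, 19 of the 24 members of this list were higher in Kv1.5, and 1 was lower (0 lower without Kv1.5 replicate 3 or Kir2.1 replicate 2 or 3). GDF15 exceeded it by 4.85, adjusted p = 1.3e-05, CTH by 3.48, adjusted p = 8.61e-06 and CHAC1 by 3.16, adjusted p = 7.59e-05. ATF4 itself was higher than in Kir2.1 (1.03, adjusted p = 0.00981), where its level was 175 ± 33 CPM (SD, n = 3), but this call was lost without Kir2.1 replicate 2 or Kv1.5 replicate 3. The amino acid response element TGATGNAA matched 3.19% of all promoters and 1.47% of those of genes tested. In the lists it matched 5 of the 22 of the stress response list and 3 of the 25 of the amino acid list. The CHAC1 promoter, chosen after its match was seen, lies at chr15:40953221-40953470 on the plus strand; its match, which reads TTGCATCA on this strand, starts 209 bases before the gene.
CHAC1: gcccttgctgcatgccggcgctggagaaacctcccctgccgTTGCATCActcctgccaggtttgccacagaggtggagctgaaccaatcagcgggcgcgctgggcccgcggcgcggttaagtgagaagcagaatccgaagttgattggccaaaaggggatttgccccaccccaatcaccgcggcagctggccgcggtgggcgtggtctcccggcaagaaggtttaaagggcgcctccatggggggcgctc

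Of genes for amino acid supply, 14 of 33 tested members rose, 3 fell and 16 were not called, with a median of 0.50 (1 lower without RFP replicate 2). The transporters SLC1A4, for alanine, serine and cysteine, and SLC38A2, for neutral amino acids, rose 4.59-fold and 3.26-fold. SLC1A4 was at 10.8, 13.3 and 13.8 CPM in RFP and 61.6 and 54.1 CPM in Kv1.5 (log2 fold change 2.2, SE 0.20, adjusted p = 1.2e-05). SLC6A9, the glycine transporter, was at 8.38, 12 and 8.32 CPM in RFP and 45.7 and 41.8 CPM in Kv1.5 (2.19 on the log2 scale, adjusted p = 3.72e-05). Among aminoacyl-tRNA synthetases, which charge tRNAs, 5 of 12 rose, and YARS1, for tyrosine, stood at 217, 193 and 167 CPM in RFP and 679 and 613 CPM in Kv1.5 (1.75 on the log2 scale, adjusted p = 5.53e-05). These 3 did not overlap between the groups. The cystine transporter SLC7A11 ran from 73.6 to 387 CPM within RFP and was not called. The serine pathway was mixed, with PHGDH, its entry enzyme, lower (-0.98, not called without RFP replicate 2 or Kv1.5 replicate 2) and PSPH, its last, higher (1.46), both picked after their values were seen. Against Kir2.1, 25 of 33 were higher, including 11 of the 12 synthetases (7 higher without Kir2.1 replicate 2), and 1 lower (0 lower without Kv1.5 replicate 3 or Kir2.1 replicate 1 or 2).

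In the unfolded protein response of the endoplasmic reticulum, 9 of 26 tested members rose, 1 fell and 16 were not called. Called in either direction were 38.5% of members, beside 33.7% of all genes. The calls were mostly upward, whereas 18.1% of all genes rose and 15.6% fell. The count of rises moved by over 1.5 times without Kv1.5 replicate 2. XBP1, whose mRNA is spliced in this response, was at 61.1, 71.7 and 76.3 CPM in the RFP libraries and 271 and 278 CPM in the Kv1.5 libraries. On the log2 scale the change was 1.98 (SE 0.19, adjusted p = 1.95e-05). ERN1, the sensor IRE1 that splices it, stood at 16.8, 14.1 and 15.9 CPM in RFP and 141 and 77.3 CPM in Kv1.5 (2.81 on the log2 scale, adjusted p = 1.18e-05). Both were separated from RFP and higher than Kir2.1, by 1.96 and 2.12 (adjusted p = 0.000129 and 0.000391). Of 14 chaperones tested 6 rose, but calls among them depended in part on 1 library. HSPA5, the main chaperone BiP, was at 695, 638 and 618 CPM in RFP and 1134 and 3110 CPM in Kv1.5. Its call (1.71 on the log2 scale) was lost at 0.80 without Kv1.5 replicate 3. That of HSP90B1, another chaperone, was lost likewise (1.47, and 0.65 without Kv1.5 replicate 3). So was that of the co-chaperone DNAJB9 (1.53, and 0.59 without Kv1.5 replicate 3), which was also lost without RFP replicate 1 or 2. Replicate 3 was above replicate 2 for 22 of the 26 members, at a median log2 ratio of 0.74. Of 13 cytosolic heat shock genes, 12 were higher in replicate 3 than in replicate 2. In that list 2 rose (0 higher without Kv1.5 replicate 3, 1 higher without RFP replicate 2 or 3 and 4 higher without Kv1.5 replicate 2) and 2 fell (1 lower without RFP replicate 2 or 3, Kv1.5 replicate 2 or Kir2.1 replicate 2 or 3 and 7 lower without Kv1.5 replicate 3). HSPA1A, an inducible chaperone of the HSP70 family with a near-identical copy in HSPA1B, was at 4.32, 3.94 and 3.34 CPM in RFP and 4.9 and 53.3 CPM in Kv1.5, called higher (2.91), with 3.79 without Kv1.5 replicate 2. This call was lost at 0.34 without Kv1.5 replicate 3, by limma voom (adjusted p = 0.0585) and with no filter on low counts (adjusted p = 0.114). HSP90AA1, the inducible cytosolic HSP90, fell from 3262, 3777 and 3522 CPM to 1053 and 1785 CPM (-1.31 on the log2 scale, adjusted p = 0.00199). In the oxidative stress response 0 of 14 rose by edgeR (2 at an unadjusted p under 0.05, 1 by DESeq2, 0 by voom, and 1 higher without Kv1.5 replicate 3 and 3 higher without RFP replicate 1) and 2 fell (0 without either Kv1.5 library). NQO1, a quinone reductase, stood at 1186, 349 and 251 CPM in RFP and 121 and 68.6 CPM in Kv1.5; its change of -2.65 was -1.66 without RFP replicate 1 and was not called without Kv1.5 replicate 2 or 3 or with no filter on low counts.

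Many feedback and output genes of ERK signalling rose, and no receptor or kinase of the pathway was called higher. Of feedback and output genes, 8 of 14 tested members rose, 1 fell and 5 were not called (0 lower without Kv1.5 replicate 2); of receptors and kinases, 0 of 9 tested members rose, 2 fell and 7 were not called (0 lower without RFP replicate 3 or Kv1.5 replicate 2 and 1 lower without RFP replicate 1 or 2, Kv1.5 replicate 3 or Kir2.1 replicate 2 or 3). ERRFI1, an inhibitor of the EGF receptor (ENSG00000116285.13, chromosome 1, 8004404 to 8026308), was at 335, 309 and 331 CPM in the RFP libraries and 4196 and 3342 CPM in the Kv1.5 libraries, 11.6-fold higher. Fitted, the difference on the log2 scale was 3.54 (SE 0.23, adjusted p = 1.1e-06). PHLDA1, a pleckstrin-homology protein induced by growth factors, stood at 473, 549 and 677 CPM in RFP and 3067 and 2864 CPM in Kv1.5 (2.39 on the log2 scale, adjusted p = 8.77e-06). IER3, an early response gene with a part in survival, was at 391, 468 and 553 CPM in RFP and 3433 and 2675 CPM in Kv1.5 (2.7 on the log2 scale, adjusted p = 5.6e-06). These were picked among genes without overlap between the groups. All 3 exceeded Kir2.1, by 2.7, 2.06 and 1.33 (adjusted p = 5.54e-05, 0.000166 and 0.00225). SPRY2, a Sprouty inhibitor of receptor tyrosine kinases picked after its value was seen, rose by 2.5. The ligands of the EGF receptor split: AREG rose from 19.3, 17.5 and 24.5 CPM to 199.8 and 72.7 CPM (2.74 on the log2 scale, adjusted p = 0.00015; 1.84 without Kv1.5 replicate 2), and EREG fell from 151, 73 and 97 CPM to 21.5 and 9.22 CPM (-2.8 on the log2 scale, adjusted p = 0.000341; -3.53 without Kv1.5 replicate 2).

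Among immediate early genes, 13 of 20 tested members rose, 0 fell and 7 were not called, with a median of 1.49. JUNB, an AP-1 subunit, was at 39.9, 45 and 36.8 CPM in the RFP libraries and 285 and 453 CPM in the Kv1.5 libraries, 9.11-fold higher. The log2 fold change was 3.19 (SE 0.23, adjusted p = 1.82e-06). IER2, a nuclear early response protein, was at 109.6, 87.1 and 55 CPM in RFP and 252 and 477 CPM in Kv1.5 (2.12 on the log2 scale, adjusted p = 0.000276). MYC, the growth regulator, chosen after its value was seen, was at 260.3, 245 and 173 CPM in RFP and 652 and 1197 CPM in Kv1.5 (2.03 on the log2 scale, adjusted p = 0.00018). Replicate 3 had the higher value in all 3, as in 17 of the 20 members, and no RFP library reached the lower one. FOS, the classical partner of JUN, varied from 71.6 to 173 CPM within RFP and was at 163 and 191 CPM in Kv1.5, not called. Higher than Kir2.1 were 10 of the 20 (4 higher without Kv1.5 replicate 3), JUNB by 2.4, adjusted p = 9.71e-05. The AP-1 motif TGANTCA matched 6.60% of all promoters and 4.25% of those of genes tested. In the lists it matched 2 of the 20 of the ERK list and 0 of the 16 of the immediate early list.

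DNA replication genes were lower in Kv1.5: 0 of 36 tested members rose, 32 fell and 4 were not called, at a median of -1.2, and 34 of the 36 lay below every RFP library. The Kv1.5 libraries had medians of -1.19 and -1.23 against the RFP mean on the log2 scale, but differed by role. Licensing genes had medians of -1.6 in replicate 2 and -1.04 in replicate 3, where 11 of 12 were the higher. Nucleotide supply genes, at -0.73 and -1.68, were lower in replicate 3 in 5 of 6 cases. Gene by gene, the median log2 ratio of replicate 3 over replicate 2 was 0.51 for licensing and -0.61 for nucleotide supply genes. It was only -0.04 for fork and -0.08 for chromatin genes, although the chromatin medians were -1.05 and -1.66 and 4 of 6 were lower in replicate 3. MCM5, a subunit of the replicative helicase (ENSG00000100297.16, chromosome 22, 35400063 to 35425430), was at 155, 168 and 129.9 CPM in the RFP libraries and 33.9 and 32.1 CPM in the Kv1.5 libraries. This is a log2 fold change of -2.19 (SE 0.21, adjusted p = 1.47e-05). POLE, the leading-strand polymerase, stood at 212, 194 and 126 CPM in RFP and 40.6 and 39.2 CPM in Kv1.5 (-2.15 on the log2 scale, adjusted p = 9.74e-05). UHRF1, which maintains DNA methylation behind the fork, was at 125, 109.7 and 79.9 CPM in RFP and 15 and 27 CPM in Kv1.5 (-2.32 on the log2 scale, adjusted p = 0.000122). CHAF1A, the histone chaperone of new chromatin, was at 179.9, 160.2 and 139 CPM in RFP and 36.9 and 41.5 CPM in Kv1.5 (-2.02 on the log2 scale, adjusted p = 2.69e-05). All 4 were separated from RFP and lower than Kir2.1, from POLE (-1.43, adjusted p = 0.00323) to MCM5 (-1.99, adjusted p = 0.000176). Licensing genes fell in 11 of 12 cases, fork genes in 10 of 12, nucleotide supply genes in 6 of 6 and chromatin genes in 5 of 6. Lower than in Kir2.1 were 24 of the 36 (13 lower without Kir2.1 replicate 2 and 15 lower without Kir2.1 replicate 3). The origin recognition gene ORC6 was the 1 higher than in Kir2.1 (0.66, adjusted p = 0.0341), a call lost without Kir2.1 replicate 2 or 3, Kv1.5 replicate 3 or RFP replicate 2.

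The E2F site TTTNGCGC matched 1.54% of all promoters, 2.42% of those of genes tested and 8 of the 33 replication promoters in the table. MCM6 and POLE, picked after the matches were seen, lie at chr2:135876444-135876693 on the minus strand and chr12:132687343-132687592 on the minus strand. MCM6, a helicase subunit, was at 157, 186 and 178 CPM in RFP and 45.1 and 54.8 CPM in Kv1.5. Each of its 2 blocks in capitals holds 2 overlapping matches, 1 on each strand, and in POLE the single match begins 18 bases before the start.
MCM6: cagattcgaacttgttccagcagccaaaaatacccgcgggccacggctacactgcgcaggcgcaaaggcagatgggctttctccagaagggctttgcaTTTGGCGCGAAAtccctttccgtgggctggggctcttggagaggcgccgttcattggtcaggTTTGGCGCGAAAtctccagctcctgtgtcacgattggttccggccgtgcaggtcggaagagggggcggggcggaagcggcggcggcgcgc
POLE: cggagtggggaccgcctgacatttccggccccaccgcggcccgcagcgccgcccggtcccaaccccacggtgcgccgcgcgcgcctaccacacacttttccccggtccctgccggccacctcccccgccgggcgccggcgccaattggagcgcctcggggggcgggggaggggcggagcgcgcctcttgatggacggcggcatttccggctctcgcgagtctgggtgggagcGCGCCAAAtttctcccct

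Mitosis genes also fell, but unequally between the Kv1.5 libraries. Over the list, 0 of 30 tested members rose, 25 fell and 5 were not called, with a median of -1.39. Replicate 3 was lower than replicate 2 for 29 of the 30 genes, and their medians against the RFP mean were -2.41 and -0.98. MKI67, the proliferation antigen Ki-67 (ENSG00000148773.14, chromosome 10, 128096659 to 128126385), was at 1108, 1021 and 863 CPM in the RFP libraries and 319 and 67.7 CPM in the Kv1.5 libraries (log2 fold change -2.37, SE 0.54, adjusted p = 0.00764), with values of -3.88 without Kv1.5 replicate 2 and -1.65 without Kv1.5 replicate 3. KIF20A, a kinesin of the midzone, stood at 265, 272 and 289 CPM in RFP and 60.9 and 5.21 CPM in Kv1.5 (-3.06 on the log2 scale, adjusted p = 0.0225; -5.72 without Kv1.5 replicate 2, -2.18 without Kv1.5 replicate 3), and lost its call when low counts were not filtered (adjusted p = 0.127) and without Kir2.1 replicate 3, which enters the spread estimate. FOXM1, a transcription factor of mitotic genes, was at 511, 424 and 380.2 CPM in RFP and 156 and 42.8 CPM in Kv1.5 (-2.14 on the log2 scale, adjusted p = 0.00335; -3.35 without Kv1.5 replicate 2, -1.49 without Kv1.5 replicate 3). For each, both Kv1.5 values were under the RFP values although they differed from each other. CDK1, the mitotic kinase, at 210.1, 325 and 352 CPM in RFP and 148 and 98.4 CPM in Kv1.5, had a log2 fold change of -1.26 and lost its call at -0.99 without Kv1.5 replicate 3. In the test against Kir2.1, 8 of the 30 were lower (2 lower without Kir2.1 replicate 2 or 3, 4 lower without RFP replicate 2 or Kir2.1 replicate 1, 5 lower without Kv1.5 replicate 3 and 28 lower without Kv1.5 replicate 2). MKI67 was among them (-2.18, adjusted p = 0.0214), with its call lost without Kir2.1 replicate 2 or 3. Whether growth state or density differed between these cultures was not tested.

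**Figure D2:**
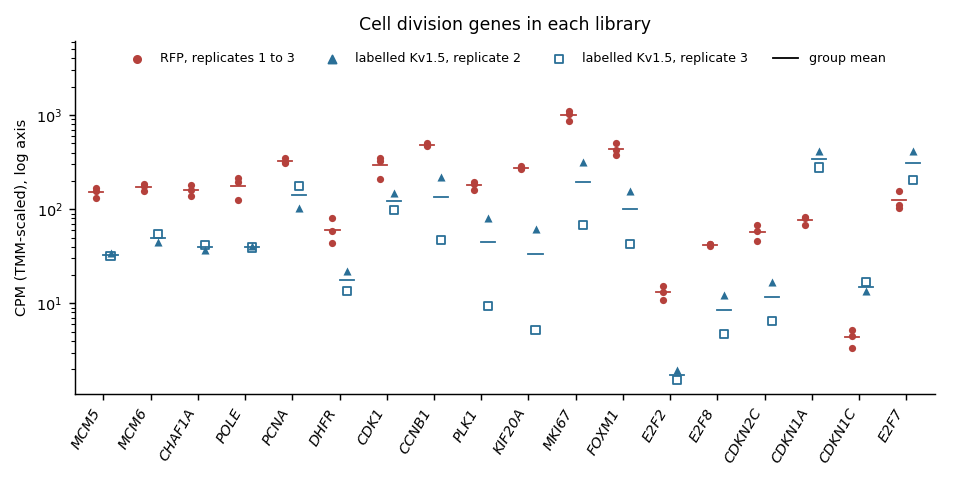
CPM on a log axis of 18 cell division genes in each library, with circles for RFP, a triangle and an open square for Kv1.5 replicates 2 and 3, and a line at each group mean. The replication gene MCM5 shows both Kv1.5 libraries together under RFP, mitosis genes such as KIF20A show replicate 3 far under replicate 2, and CDKN1A, CDKN1C and E2F7 lie above RFP.

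Regulators of the cycle were mixed: 3 of 20 tested members rose, 10 fell and 7 were not called. CDKN1A, the cyclin-dependent kinase inhibitor p21, was at 80.2, 68.7 and 83.1 CPM in the RFP libraries and 411 and 277 CPM in the Kv1.5 libraries (log2 fold change 2.15, SE 0.21, adjusted p = 2.25e-05), and it exceeded Kir2.1 by 1.0, adjusted p = 0.00846. CDKN1B, the inhibitor p27, was lower, at 47.7, 65.2 and 69.5 CPM in RFP and 24.6 and 29.1 CPM in Kv1.5 (-1.18 on the log2 scale, adjusted p = 0.00237). E2F2, an activating E2F factor, stood at 10.7, 15.4 and 13.3 CPM in RFP and 1.98 and 1.53 CPM in Kv1.5 (-2.9 on the log2 scale, adjusted p = 2.31e-05) and was lower than in Kir2.1 (-2.53, adjusted p = 0.000306). CDKN1A lay above and the other two below every RFP library. CDKN2C, the inhibitor p18, fell by 2.31 (-3.15 without Kv1.5 replicate 2) and E2F8, a repressive E2F, by 2.32 (-3.15 without Kv1.5 replicate 2). Of genes known as p53 targets, 7 of 14 tested members rose, 1 fell and 6 were not called, with a median of 0.77 (2 lower without Kv1.5 replicate 3). GADD45A, a growth arrest gene, was at 73.7, 48.2 and 34.5 CPM in RFP and 349 and 191 CPM in Kv1.5 (2.37 on the log2 scale, adjusted p = 0.000199). PMAIP1, the death gene NOXA, stood at 55.2, 53.4 and 67.3 CPM in RFP and 199 and 293 CPM in Kv1.5 (2.07 on the log2 scale, adjusted p = 4.73e-05). MDM2, the p53 ligase and a direct target, fell, at 72.2, 60.8 and 73.6 CPM in RFP and 40.1 and 37.2 CPM in Kv1.5 (-0.83 on the log2 scale, adjusted p = 0.0065). CDKN1A, BBC3 and TNFRSF10B of this list are also listed elsewhere, the latter 2 under the stress response.

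In metabolism, the enzymes of cholesterol synthesis fell: 0 of 17 tested members rose, 12 fell and 5 were not called, while of their regulators 0 of 5 were called. For the regulators an unadjusted p under 0.05 gave 1 higher and 2 lower, DESeq2 1 and 2 and voom 1 and 1, and edgeR called 1 higher without RFP replicate 3 and, in the other direction, 1 lower without RFP replicate 1 and 2 lower without Kir2.1 replicate 1 or 3. ACAT2, which makes acetoacetyl-CoA, was at 207, 179 and 222 CPM in RFP and 89.7 and 43.7 CPM in Kv1.5 (-1.6 on the log2 scale, adjusted p = 0.00107; -2.21 without Kv1.5 replicate 2). The feedback gene INSIG1, at 136, 196 and 364 CPM in RFP and 49.8 and 69 CPM in Kv1.5, did not pass (adjusted p = 0.0514). It did by DESeq2 (adjusted p = 0.046), by limma voom (0.026), with only the 2 groups compared (0.00841), with at least 1 CPM required in 2 libraries (0.0374), and without RFP replicate 1 or Kir2.1 replicate 1 or 3. The groups did not overlap for ACAT2. MSMO1, which removes sterol methyl groups, spread from 63.2 to 207 CPM within RFP and lost its call without RFP replicate 3, Kv1.5 replicate 2 or 3 or Kir2.1 replicate 2, and when low counts were not filtered (-1.87, and -1.1 without RFP replicate 3). ABCG1, a sterol exporter at low level, was called higher (2.68) but not without RFP replicate 2, Kv1.5 replicate 2 or 3 or Kir2.1 replicate 2 or 3, and not by DESeq2, with 2 other scalings, with no filter on low counts, against a fold of 1.2 or with only the 2 groups compared, with values of 4.13 without RFP replicate 3 and 1.99 without Kv1.5 replicate 3. The sterol element TCACNCCA matched 3.18% of all promoters, 2.67% of those of genes tested and 3 of the 20 in the list. Of 13 fatty acid genes 1 fell, FADS2, a desaturase, at 186, 294 and 373 CPM in RFP and 95.4 and 99.7 CPM in Kv1.5, and this call was lost without Kv1.5 replicate 2 or 3.

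Of glycolysis and hypoxia genes, 3 of 28 tested members rose, 11 fell and 14 were not called, with a median of -0.45. The counts were 1 higher without RFP replicate 2 and 5 higher without RFP replicate 3, and 6 lower without Kv1.5 replicate 3 and 7 lower without Kv1.5 replicate 2. Steps of glycolysis moved in both directions: HK2, the inducible hexokinase, was at 90.1, 88.1 and 47.8 CPM in the RFP libraries and 208 and 189.6 CPM in the Kv1.5 libraries (log2 fold change 1.4, SE 0.27, adjusted p = 0.00202), and PKM, pyruvate kinase, at 4789, 4916 and 4516 CPM in RFP and 2011 and 1476 CPM in Kv1.5 (-1.44 on the log2 scale, adjusted p = 0.000503). GAPDH, the dehydrogenase of the pathway, stood at 6177, 4790 and 4616 CPM in RFP and 2499 and 1667 CPM in Kv1.5 (-1.32 on the log2 scale, adjusted p = 0.00423). PKM was also lower than in Kir2.1 (-1.12, adjusted p = 0.00614). All 3 were clear of overlap. Nuclear genes of the respiratory chain gave 1 higher and 5 lower of 21 (2 higher without Kv1.5 replicate 2, 0 lower without Kv1.5 replicate 3 and 3 lower without RFP replicate 1 or 2). Of 13 mitochondrially encoded mRNAs edgeR called 0 in either direction, and 1 was lower at an unadjusted p under 0.05, by DESeq2 and without RFP replicate 3. The proteasome, at 1 higher and 3 lower of 20 (0 higher without RFP replicate 1 or 2 or Kv1.5 replicate 3 and 1 lower without Kv1.5 replicate 3), and the cytosolic ribosomal protein genes, at 4 higher and 5 lower of 83, had 20% and 10.8% of members called, beside 33.7% of all genes. Of lysosome and autophagy genes, 10 of 25 tested members rose, 0 fell and 15 were not called (6 higher without Kv1.5 replicate 2, and 1 lower at an unadjusted p under 0.05). TFEB, a master regulator of lysosomal genes, was at 0.907, 1.18 and 1.29 CPM in RFP and 6.11 and 20.7 CPM in Kv1.5 (3.57 on the log2 scale, adjusted p = 0.000104; 4.2 without Kv1.5 replicate 2, 2.44 without Kv1.5 replicate 3). NEU1, a lysosomal sialidase, stood at 97, 65.1 and 86.8 CPM in RFP and 247 and 205 CPM in Kv1.5 (1.45 on the log2 scale, adjusted p = 0.000641). MAP1LC3B, which marks autophagosomes, rose by 1.5 (0.82 without Kv1.5 replicate 2) and was higher than in Kir2.1 (1.61, adjusted p = 0.00329).

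Secreted proteases and their inhibitors rose in many members: 14 of 26 tested members rose, 2 fell and 10 were not called, at a median of 1.19. MMP1, interstitial collagenase, went from 6.45, 7.43 and 8.69 CPM to 7049 and 19440 CPM (log2 fold change 10.78, SE 0.63, adjusted p = 1.1e-06; 9.87 without Kv1.5 replicate 3), which was 0.698% and 1.82% of all counts of the 2 Kv1.5 libraries. PLAT, tissue plasminogen activator, was at 66.5, 113 and 118 CPM in RFP and 1239 and 937 CPM in Kv1.5 (3.45 on the log2 scale, adjusted p = 2.81e-06). ADAMTS1, an aggrecanase, stood at 10.3, 7.22 and 2.19 CPM in RFP and 84.2 and 328 CPM in Kv1.5 (4.97 on the log2 scale, adjusted p = 0.000666; 5.64 without Kv1.5 replicate 2, 3.67 without Kv1.5 replicate 3). MMP1 exceeded Kir2.1 by 3.04, adjusted p = 0.00212. PLAT exceeded it by 1.09, adjusted p = 0.0132, a call lost without Kir2.1 replicate 3 or Kv1.5 replicate 2, and ADAMTS1 by 2.67, adjusted p = 0.0202, a call lost without Kir2.1 replicate 2 or 3 or Kv1.5 replicate 3. PLAT and ADAMTS1 were picked after their values were seen. PLAU, the urokinase activator, differed within the group, at 2087 and 359 CPM, and was not called (called higher without Kv1.5 replicate 3). Opposite to these, MMP2, gelatinase A, kept 2 counts in Kv1.5 against 1181 in RFP, a ratio of 396 (95% interval 109 to 3274). The cystatins CST1 and CST4, close paralogs whose reads may be shared, rose by 9.7 and 8.03, with differences from Kir2.1 of 0.13, adjusted p = 0.883 and 0.35, adjusted p = 0.68; CST1 was 8.8 without Kv1.5 replicate 2, and CST4 6.97 without Kv1.5 replicate 2 and 8.64 without Kv1.5 replicate 3.

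Collagen genes fell or did not pass: 0 of 12 tested members rose, 7 fell and 5 were not called. COL1A1, a chain of collagen I, was at 193, 184 and 195 CPM in the RFP libraries and 6.91 and 2.63 CPM in the Kv1.5 libraries (log2 fold change -5.32, SE 0.38, adjusted p = 1.82e-06; -6.17 without Kv1.5 replicate 2), not different from Kir2.1 by the test (-0.69, adjusted p = 0.147). COL4A1, of basement membrane collagen, was at 83.7, 83.7 and 86.6 CPM in RFP and 21.6 and 20.8 CPM in Kv1.5 (-2.0 on the log2 scale, adjusted p = 0.000101). FKBP10, a collagen chaperone of the endoplasmic reticulum, stood at 101, 123 and 98.6 CPM in RFP and 0.334 and 0.527 CPM in Kv1.5 (-7.96 on the log2 scale, adjusted p = 1.44e-07). In all 3 the groups were separated. Laminins split by chain: LAMB3, of laminin 332, rose from 522, 523 and 386 CPM to 2041 and 1900 CPM (2.05 on the log2 scale, adjusted p = 3.93e-05), and LAMA4, of mesenchymal laminins, fell from 19.8, 25.2 and 33.5 CPM to 2.44 and 1.29 CPM (-3.81 on the log2 scale, adjusted p = 2.02e-05). Both differed from Kir2.1, LAMB3 by 1.07, adjusted p = 0.00702 and LAMA4 by -1.27, adjusted p = 0.0251, the latter call lost without Kir2.1 replicate 2 or 3 or Kv1.5 replicate 3. Of 13 integrin subunits 5 rose (2 higher without RFP replicate 1 and 3 higher without RFP replicate 2 or Kir2.1 replicate 2) and 0 fell (1 at an unadjusted p under 0.05, 1 by DESeq2, 0 by voom, and 2 lower without RFP replicate 1). ITGA5, the fibronectin receptor chain, was at 142, 125 and 129.8 CPM in RFP and 411 and 322 CPM in Kv1.5 (1.47 on the log2 scale, adjusted p = 0.000171), and ITGA2, a collagen receptor chain, at 102, 147 and 218 CPM in RFP and 421 and 666 CPM in Kv1.5 (1.8 on the log2 scale, adjusted p = 0.00301).

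Of junction and epithelial genes, 7 of 30 tested members rose, 8 fell and 15 were not called. CLDN4, a tight junction claudin, was at 1.19, 1.08 and 0.835 CPM in the RFP libraries and 52.2 and 62.7 CPM in the Kv1.5 libraries, 55.1-fold higher (log2 fold change 5.78, SE 0.23, adjusted p = 1.51e-08), but lower than in Kir2.1 (-1.18, adjusted p = 0.00279), where it was at 130.3 ± 6.67 CPM (SD, n = 3). CLDN1, another claudin, chosen after its value was seen, stood at 4.37, 5.3 and 8.86 CPM in RFP and 84.5 and 39.8 CPM in Kv1.5 (3.33 on the log2 scale, adjusted p = 3.92e-05; 2.69 without Kv1.5 replicate 2) and was above Kir2.1 by 3.77, adjusted p = 0.00012. CLDN11 had 514 counts in RFP and 0 in Kv1.5, at least 115-fold lower. KRT81, a hair keratin, was at 435, 342 and 384 CPM in RFP and 4.47 and 4.92 CPM in Kv1.5 (-6.37 on the log2 scale, adjusted p = 1.51e-08) and lower than in Kir2.1 (-4.26, adjusted p = 1.58e-06). The claudins moved in opposite directions without overlap. CDH11, a mesenchymal cadherin, was at 0.0239, 0.0788 and 0 CPM in RFP and 155 and 147 CPM in Kv1.5; it differed from Kir2.1 by 0.04, adjusted p = 0.928, its log2 fold change rests on 4 RFP counts, and it was 13.16 without RFP replicate 2. Of regulators of epithelial to mesenchymal transition 1 of 6 tested was called: PRRX1, a homeobox factor, fell by 2.18, while ZEB1 and SNAI2 had log2 fold changes of 0.30 and 0.00.

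In TGF-beta signalling, 8 of 26 tested members rose, 9 fell and 9 were not called (5 higher without RFP replicate 2 or Kv1.5 replicate 3). INHBA, the activin A chain, was at 9.29, 4.31 and 8.17 CPM in the RFP libraries and 30.8 and 69.2 CPM in the Kv1.5 libraries (log2 fold change 2.78, SE 0.37, adjusted p = 0.000177; 2.09 without Kv1.5 replicate 3), above Kir2.1 by 4.03, adjusted p = 0.00012. ID1, an inhibitor of differentiation induced by BMP signals, was at 132, 87.2 and 78.5 CPM in RFP and 6.19 and 16 CPM in Kv1.5 (-3.16 on the log2 scale, adjusted p = 0.000123; -4.0 without Kv1.5 replicate 3), and differed from Kir2.1 by -1.95, adjusted p = 0.00513. The receptor ACVRL1, a partner of endoglin at low level, fell from 0.43, 0.867 and 0.777 CPM to 0.0513 and 0.079 CPM (-3.34 on the log2 scale, adjusted p = 0.00313). Of YAP and TEAD genes 1 of 13 rose (0 higher without RFP replicate 2 or 3, Kv1.5 replicate 3 or Kir2.1 replicate 1 or 2 and 2 higher without RFP replicate 1) and 3 fell. WWTR1, the coactivator TAZ, was at 84.3, 116 and 144 CPM in RFP and 50.7 and 46.3 CPM in Kv1.5 (-1.24 on the log2 scale, adjusted p = 0.00308). Of guidance genes 7 of 18 rose (4 higher without Kv1.5 replicate 3) and 3 fell, with SEMA3A, a repulsive semaphorin, at 18.9, 20.6 and 27.2 CPM in RFP and 69.7 and 69.3 CPM in Kv1.5 (1.65 on the log2 scale, adjusted p = 0.000151) and its receptor NRP1 higher by 1.4. PTGS2, the prostaglandin synthase COX-2, stood at 15.5, 14.9 and 49.3 CPM in RFP and 127 and 174 CPM in Kv1.5 (2.5 on the log2 scale, adjusted p = 0.00461; 3.3 without RFP replicate 3) and was above Kir2.1 by 4.33, adjusted p = 0.00112. HAS2, a hyaluronan synthase, overlapped between the groups.

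Antigen presentation genes rose without a difference from Kir2.1 past the threshold in that direction. Of the MHC class I list, 8 of 14 tested members rose, 1 fell and 5 were not called, at a median of 0.70 (0 lower without Kv1.5 replicate 3 and 2 lower without Kv1.5 replicate 2), and 0 of 14 were higher than in Kir2.1 by edgeR (1 at an unadjusted p under 0.05, 1 by DESeq2, 0 by voom, and 1 higher without Kv1.5 replicate 2). HLA-B, a class I heavy chain, was at 152, 173 and 209.8 CPM in the RFP libraries and 1020 and 1036 CPM in the Kv1.5 libraries (log2 fold change 2.53, SE 0.21, adjusted p = 5.6e-06), with a difference from Kir2.1 of 0.24, adjusted p = 0.446. TAP1, the peptide transporter, was at 39.5, 43.9 and 38.1 CPM in RFP and 149.5 and 177 CPM in Kv1.5 (2.01 on the log2 scale, adjusted p = 1.11e-05). B2M, the light chain, overlapped, at 624, 919.9 and 1258 CPM in RFP and 894 and 1133 CPM in Kv1.5. The heavy chain genes are alike in sequence, so reads may be split among them. Of interferon response genes, 6 of 26 tested members rose, 3 fell and 17 were not called, near the background (10 higher without RFP replicate 3 and 5 lower without Kv1.5 replicate 2), and 23 of the 26 were lower in replicate 3 than in replicate 2 of Kv1.5. IFI27, an interferon-induced membrane protein, stood at 1, 0.709 and 1.09 CPM in RFP and 39.7 and 55.2 CPM in Kv1.5 (5.66 on the log2 scale, adjusted p = 8.23e-08). BST2, the virus-tethering protein tetherin, was at 4.03, 5.07 and 12.9 CPM in RFP and 169 and 87.6 CPM in Kv1.5 (4.13 on the log2 scale, adjusted p = 0.00021; 4.81 without RFP replicate 3).

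Among potassium channel genes 2 of 12 tested rose (1 higher without RFP replicate 1 or 2, Kv1.5 replicate 3 or Kir2.1 replicate 1, 2 or 3) and 1 fell (0 lower without RFP replicate 2 or Kv1.5 replicate 2), 25% of the list beside 33.7% of all genes. The 1 member that fell was KCTD12, which was listed with the channels but is not itself a channel. KCNS3, a silent Kv subunit, was at 5.87, 7.54 and 8.14 CPM in the RFP libraries and 12.5 and 18 CPM in the Kv1.5 libraries (log2 fold change 1.08, SE 0.25, adjusted p = 0.00642). KCNJ2 was at 0.0239, 0 and 0.0863 CPM in RFP and 0.0257 and 0.105 CPM in Kv1.5. KCTD12, a subunit of GABA receptor complexes, was at 35.1, 52.5 and 50.4 CPM in RFP and 7.16 and 22.6 CPM in Kv1.5 (-1.63 on the log2 scale, adjusted p = 0.0282; -1.02 without Kv1.5 replicate 2, -2.68 without Kv1.5 replicate 3), and lost its call without RFP replicate 2 or Kv1.5 replicate 2. Of sodium and calcium transport genes 4 of 17 rose and 2 fell (1 lower without RFP replicate 2 or 3, Kv1.5 replicate 3 or Kir2.1 replicate 2). ATP1B1, the beta subunit of the sodium pump, was at 108, 90.4 and 106 CPM in RFP and 541 and 516 CPM in Kv1.5 (2.38 on the log2 scale, adjusted p = 5.64e-06), above Kir2.1 by 1.36, adjusted p = 0.00105. ATP2B1, the plasma membrane calcium pump, stood at 210.1, 173 and 266 CPM in RFP and 1016 and 731 CPM in Kv1.5 (2.01 on the log2 scale, adjusted p = 0.000129), above Kir2.1 by 1.74, adjusted p = 0.00117. ITPR3, a calcium release channel, rose by 1.6. The 3 called pump and release genes did not overlap with RFP.

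Changes were uneven along the karyotype. Over 10678 genes at a mean of at least 5 CPM, of which 18.3% rose and 16.5% fell, the median log2 fold change was 0.00. On chromosome 18 it was 0.51 over 155 genes, of which 42.6% rose and 3.23% fell; the Kv1.5 libraries had medians of 0.53 and 0.51 from the RFP mean, the RFP libraries -0.03 to 0.04 and the Kir2.1 libraries 0.10 to 0.27. On chromosome 6 it was 0.41 over 560 genes, with 36.4% higher, and on chromosome 21 it was 0.37 over 102 genes, with 35.3% higher. Chromosome X had 0.31 over 351 genes, with 37.3% higher, and chromosome 19 had 0.28 over 719 genes, with 26.7% higher. The Kir2.1 libraries lay at 0.17 to 0.24 on chromosome 6, 0.06 to 0.19 on 21, 0.22 to 0.31 on X and 0.19 to 0.37 on 19. Chromosome 12, which carries KCNA5, had a median of -0.40 over 566 genes, with 33.7% lower and 13.1% higher, and the Kir2.1 libraries lay at -0.35 to -0.41. Chromosome 15 had a median of -0.30, with 33.0% lower, and the Kir2.1 libraries lay at -0.25 to -0.36. No test was made of these medians, and whether the lines differ in chromosome copies was not tested.

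**Figure D3:**
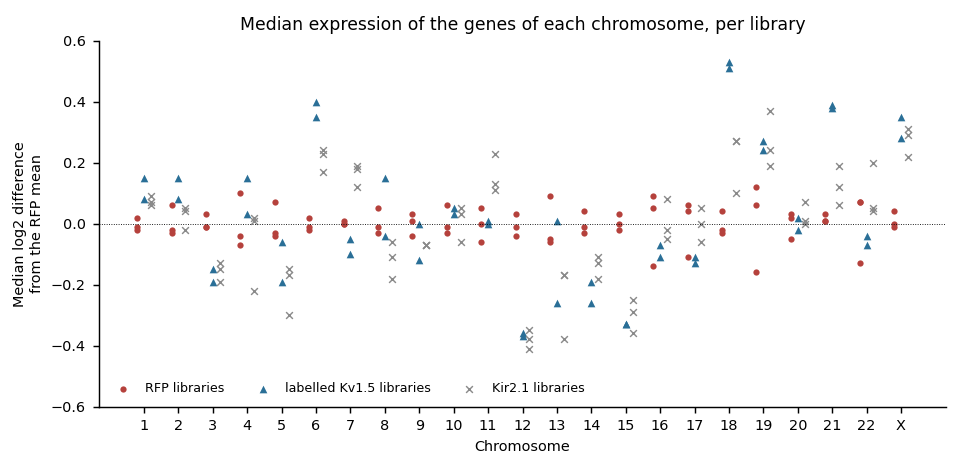
Median log2 difference from the RFP mean (CPM + 0.5) over the genes of each chromosome, for each of 3 RFP libraries (circles), 2 Kv1.5 libraries (triangles) and 3 Kir2.1 libraries (crosses). The Kv1.5 libraries lie at 0.53 and 0.51 on chromosome 18 and at -0.37 and -0.36 on chromosome 12, with RFP libraries at -0.04 to 0.04 on both.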

How the data were processed

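RNA was sequenced from cultures of transduced MDA-MB-231 cells with a stranded mRNA kit and single-end reads, per the labels' protocols. The submitters' processing notes name FastQC, Trimmomatic, STAR, edgeR and GRCh38. The sources used here name no counting tool, strand setting or annotation release. The deposited table holds raw counts per Ensembl gene for 60715 IDs in 8 libraries, and 58497 IDs matched GENCODE 29 for positions. Library totals were 33517273 to 42753422 counts in the 5 libraries compared.

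Counts were fitted with edgeR 4.0.16 (TMM, filterByExpr by group, robust quasi-likelihood F test, 5 residual degrees of freedom) over RFP, Kv1.5 and Kir2.1 libraries together, and p-values were Benjamini-Hochberg adjusted over 16687 genes. Every adjusted p is from this fit unless another tool is named. The SE of a log2 fold change was taken from its F statistic. CPM were computed on TMM-scaled totals of the genes tested. Where a group had 0 counts in all, 3 counts were put in their place and the fold is written as at least that. From 1 to 3 counts in a group, the ratio has an exact 95% interval. Both cover counting error only. Per-library medians used log2(CPM + 0.5). The fit was tested on simulated data. Alternatives were other scalings and filters, DESeq2 1.42.0, limma 3.58.1 voom, glmTreat against a fold of 1.2, only the 2 groups compared, a replicate block, an adjusted p under 0.01 and each library left out.

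Members and gene lists were chosen with earlier results of these data known. Genes were named by rule: among called genes without overlap, the 12 largest rises and falls at 20 CPM or more, the 10 largest gains and losses in CPM, and of each list the first 2 members and up to 4 called members with the largest change. Not every gene the rule names is reported. Other genes were chosen after their values were seen. Promoter sequences are from RefSeq (GRCh38.p14). Results for 3 genes are not reported here.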

Additional observations from a re-analysis of the deposited data

How the results depend on the processing

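Over 18 alternatives, the number of genes called between Kv1.5 and RFP ran from 3123 at an adjusted p under 0.01, with 1849 higher and 1274 lower, to 6259 with no filter on low counts. It was 5624 in the main fit and 4377 with only the 2 groups compared, without the Kir2.1 libraries. With each library left out in turn it ran from 3912 to 5536, the higher from 2153 to 2973 and the lower from 1759 to 2563. Against Kir2.1 an adjusted p under 0.01 left 970 genes, and leaving out a library gave 1384 to 3861. Of 378 called genes of the lists or named by the rule, 245 kept the call in all alternatives and 1 changed direction: TNF ran from -0.7 without Kv1.5 replicate 2 to 4.53 without Kv1.5 replicate 3. Of 80 list counts, 43 moved by over 1.5 times in some alternative; the cause was not tested. Replicate numbers are shared between groups but were not shown to pair the libraries, since deviations from group means correlated at 0.03 for number 2 and -0.11 for number 3. With the number as a replicate block, 5565 genes were called against RFP and 2729 against Kir2.1. Of genes named here, the block ended the calls of HSPA1A (adjusted p = 0.0668), KIF20A (0.0557) and TNF (0.145) and added one for INSIG1 (0.000379), by edgeR. With 2 Kv1.5 libraries an exact permutation test of a single value cannot go below 0.1, so calls rest on the spread pooled across genes.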

Other observations

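The mitochondrial large ribosomal RNA, MT-RNR2, was at 2308, 2038 and 2591 CPM in RFP and 7734 and 10262 CPM in Kv1.5, or 0.226%, 0.207% and 0.269% of all counts in RFP and 0.766% and 0.961% in Kv1.5. It was called higher than RFP (1.96 on the log2 scale, adjusted p = 6.35e-05) and than Kir2.1 (a difference of 1.02 on the log2 scale, adjusted p = 0.0097, and not called without Kir2.1 replicate 3 or Kv1.5 replicate 3). Of mitochondrial mRNAs, edgeR called 0 of 13 against RFP, with 1 lower at an unadjusted p under 0.05 and by DESeq2. Of 860 long intergenic noncoding RNAs tested 38.4% were called, of 939 antisense RNAs 28.1%, of 13228 protein-coding genes 35.4% and of 617 processed pseudogenes 10.5%. These shares are not adjusted for level, and no source used here names the strand setting of the counting.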
